A study of Mus musculus with 12 samples.

Results

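The 9 genes described here encode a receptor chain, kinases and transcription factors of the JAK-STAT pathway: Il12rb1, the receptor chain shared by IL-12 and IL-23, the Janus kinases Tyk2, Jak1 and Jak2, and the signal transducers Stat2, Stat3, Stat5a, Stat5b and Stat6. They were chosen by name, through the mouse Ensembl gene identifiers of these symbols, from 55487 genes in the count table. The choice was made with earlier results of these data known, so shares among the 9 genes are a description only. All 9 passed the filter on low counts that left 11314 protein-coding genes to test. RNA was sequenced from wild-type C57BL/6 mouse bone marrow MSCs, which are plastic-adherent stromal cells, in 3 groups of 4 samples. Control MSCs (labelled Negative) were untreated, A1-treated MSCs received 50 μM A1 for 6 h, and A1+OVA-treated MSCs received 50 μM A1 together with 1 mg/ml ovalbumin (OVA, the chicken egg white protein used as antigen) for 6 h. A1 is a variant of Accum, a bile acid joined to a peptide that carries a nuclear localization signal, and was screened by the study for its effect on antigen cross-presentation. All groups shared AMEM with fetal bovine serum and antibiotics, and treatment began near confluency. The label of the A1+OVA medium also names insulin, with no amount, and there was no group with OVA alone, so OVA and insulin cannot be told apart in any difference between A1+OVA and A1. Labels do not say whether the 4 samples of a group came from separate cultures or animals, and the p-values measure only the spread between these samples.

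In this pathway a cytokine brings receptor chains together, the kinases bound to the chains phosphorylate each other and the receptor, and STAT proteins dock there, are phosphorylated and move to the nucleus as dimers. IL-12 uses IL12RB1 with TYK2 and IL12RB2 with JAK2, and acts mainly through STAT4 in T and NK cells, whereas gp130 cytokines use JAK1 and STAT3, growth hormone uses JAK2 and STAT5, IL-4 uses STAT6, and type I interferons use TYK2, JAK1 and STAT2. Stromal cells of the marrow are known for responding to gp130 cytokines, growth hormone and interferons rather than to IL-12.

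Each sample held 13702348 to 16881995 counts, with the 4 A1 samples (highest 14347870) below the 4 control samples (lowest 15644991). Levels are given in CPM, the count of a gene scaled to a TMM-adjusted library of fixed size, which removes a difference in total. The part of depth in the results was not tested. The labelled cell type was checked against 8 MSC markers, whose summed level was 4630 to 4850 CPM in controls, 2461 to 2577 CPM with A1 and 2551 to 2669 CPM with A1+OVA. Cxcl12, at 3910 ± 130.0 CPM in controls and 1514 ± 63.6 with A1, carried most of this fall. Without it the other 7 markers summed to 821 to 881 CPM in controls, 986 to 1017 CPM with A1 and 895 to 910 CPM with A1+OVA. Within these 7, Cd44 rose from 175 ± 6.50 CPM to 458 ± 14.2 with A1 and 402 ± 15.6 with A1+OVA. Pdgfra fell from 247 ± 9.64 CPM to 125 ± 6.13 and 111 ± 10.6, so the sum does not stand for each marker. Of the 7 tested MSC markers, Cd44 was higher and Pdgfra, Ly6a and Cxcl12 were lower with A1. Nt5e, Eng and Pdgfrb were not called. Nt5e was near the floor, at 0.539 ± 0.116 CPM in controls (7 to 11 counts) and 0.838 ± 0.187 with A1. Thy1 was too low to test (0.267 ± 0.493 CPM in controls). The MSC sums therefore say little about these 2 markers. Markers of T and NK cells, where IL-12 acts, summed to at most 1.12 CPM in any sample, with Cd3e, Cd8a, Klrb1c, Ncr1 and Nkg7 at 0 counts throughout. The pan-leukocyte gene Ptprc was at most 0.289 CPM. Macrophage markers summed to 3.14 to 4.02 CPM in controls, 4.35 to 5.27 CPM with A1 and 3.80 to 5.30 CPM with A1+OVA. Without Mrc1 (1.48 ± 0.199 CPM in controls and 3.01 ± 0.442 with A1) the other 6 summed to 1.82 to 2.60, 1.68 to 2.03 and 2.03 to 3.02 CPM. B cell markers stayed at or under 0.305 CPM and endothelial markers at or under 0.534 CPM. The 5 dendritic cell markers summed to between 7.39 and 9.53 CPM, nearly all of it from Zbtb46. That gene had 8.79 ± 0.579 CPM in controls, 7.77 ± 0.422 with A1 and 7.90 ± 0.572 with A1+OVA. The other 4 dendritic cell markers had at most 3 counts in any sample. The part of the MSC and macrophage markers in the results below was not tested. In bulk RNA, fewer cells of a type and less RNA per cell cannot be told apart.

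With A1, the RNA level of Il12rb1 was 2.12 times that of control MSCs (log2 fold change 1.08 ± 0.10 SE), while Jak1, Stat2 and Stat5a fell by 39.2% to 42.0% and Jak2 and Stat5b fell by 18.2% and 20.2%. Tyk2, Stat3 and Stat6 were 8.27% to 21.4% higher. All 9 genes thus passed an adjusted p of 0.05 in edgeR's quasi-likelihood test, 4 higher and 5 lower. That share has to be read against a background in which 62.7% of all tested genes were called, 31.7% higher and 31.1% lower. Because the 9 genes were chosen with earlier results known, the shares given here only describe them. By size, 4 of the 9 moved by 0.5 or more on the log2 scale (Il12rb1, Jak1, Stat2 and Stat5a), against 21% of tested genes with a call of that size. The median absolute log2 fold change was 0.33 for the 9 genes and 0.23 for all tested genes. The 4 samples of A1 did not overlap with the 4 controls for 8 of the 9 genes, against 54.4% of tested genes. The median log2 fold change of all tested genes was near 0 (-0.0017).

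**Figure D1:**
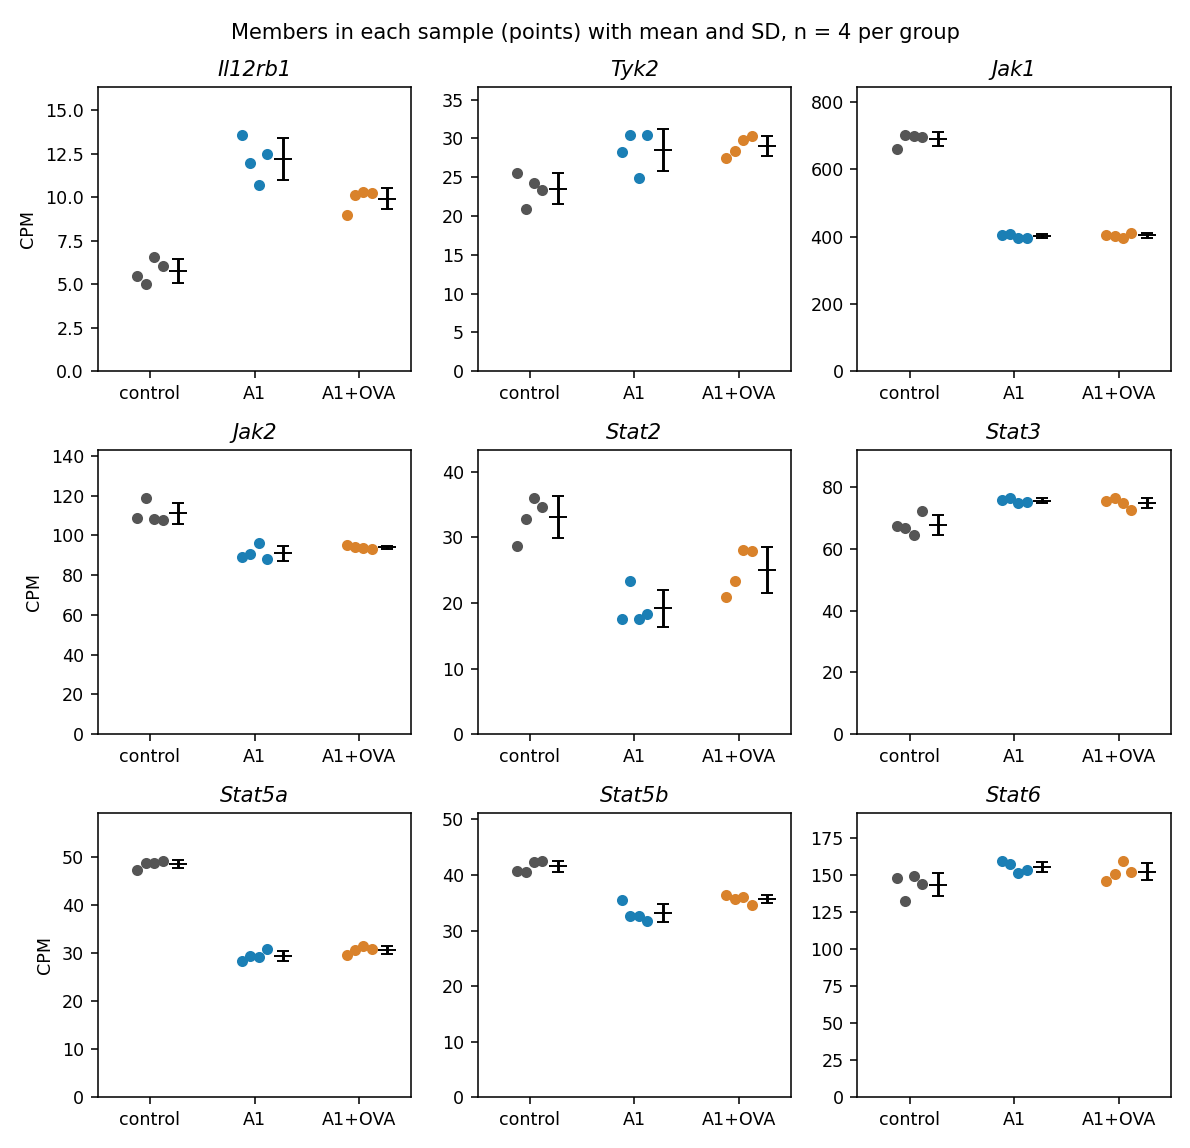
CPM of the 9 genes in each of the 12 samples, with 1 panel per gene and the y axis from 0. Points are samples and the bars beside them are the mean and SD (n = 4). Il12rb1 stood between 5.02 and 6.56 CPM in controls and between 10.7 and 13.6 CPM with A1, whereas Jak1 went from 661 to 703 CPM in controls down to 395 to 408 CPM.

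The receptor chain Il12rb1 (ENSMUSG00000000791, GRCm38 chr8:70808449-70821424, plus strand) had the fewest counts of the 9 genes. Its CPM was 5.45, 5.02, 6.56 and 6.02 in the control samples, 13.6, 12, 10.7 and 12.5 with A1, and 8.99, 10.1, 10.3 and 10.2 with A1+OVA, from 85 to 188 counts per sample. Controls were lowest, A1 highest and A1+OVA between them, and no group overlapped with another. The log2 fold change was 1.08 ± 0.10 (SE, 95% interval 0.87 to 1.29) for A1 and 0.79 ± 0.10 (0.57 to 1.00) for A1+OVA, with adjusted p = 6.22e-09 and 1.12e-06 in edgeR's quasi-likelihood test. Among all tested genes, 94.5% moved less than Il12rb1 with A1.

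The partners that would complete an IL-12 family receptor were near or below detection. Il12rb2, the second chain of the IL-12 receptor, had 3 to 8 counts in controls, 1 to 2 with A1 and 1 to 3 with A1+OVA, or 0.368 ± 0.133, 0.112 ± 0.0430 and 0.116 ± 0.0626 CPM (SD, n = 4). Il23r, the partner chain for IL-23, reached at most 4 counts, and Il27ra, a receptor chain for IL-27, at most 5. None of these 3 chains passed the filter for testing. Of the ligand subunits, Il12a, Ebi3 and Il27 had 0 counts in all 12 samples, and Il12b and Il23a had at most 1 count. Stat4, the main STAT of the IL-12 receptor, also had 0 counts in all 12 samples, which allows up to 3 counts, or 0.178 to 0.219 CPM before TMM scaling. In these cells the Il12rb1 transcript was measured beside IL-12 partner transcripts that were not detectable or barely detectable at this depth. Il6st, which encodes gp130 and serves IL-27 and IL-6 cytokines, was the tested chain of this list, at 639 ± 14.1 CPM in controls, 397 ± 12.2 with A1 and 408 ± 8.72 with A1+OVA (log2 fold change -0.69 ± 0.04 and -0.65 ± 0.04, adjusted p = 3.18e-13 and 9.79e-13, edgeR).

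The kinase genes moved in opposite directions. Jak1 (ENSMUSG00000028530, chr4:101152367-101265282, minus strand), the kinase of gp130 and interferon receptors, had 661, 703, 701 and 696 CPM in controls, 404, 408, 397 and 395 with A1 and 406, 401, 396 and 411 with A1+OVA. Every treated sample was below every control sample, and the treated groups overlapped with each other. Its log2 fold change was -0.78 ± 0.03 with A1 and -0.77 ± 0.03 with A1+OVA (adjusted p = 2.10e-14 and 2.85e-14, edgeR's quasi-likelihood test).

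Jak2 (ENSMUSG00000024789, chr19:29251828-29313080, plus strand), the kinase of IL12RB2 and of the growth hormone receptor, fell less. The controls had 109, 119, 108 and 108 CPM, the A1 samples 88.9, 90.5, 96.3 and 87.9 CPM, and the A1+OVA samples 94.9, 94.2, 93.4 and 93.2 CPM. Controls lay above all treated samples. The log2 fold change was -0.29 ± 0.04 for A1 and -0.24 ± 0.04 for A1+OVA, with adjusted p = 3.34e-06 and 3.17e-05 (edgeR).

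Tyk2 (ENSMUSG00000032175, chr9:21104068-21131243, minus strand), the kinase bound to IL12RB1 and to the interferon receptor, was the member of the kinase set that rose. It had 25.6, 20.9, 24.3 and 23.4 CPM in controls, 28.2, 30.5, 24.9 and 30.5 with A1 and 27.5, 28.4, 29.8 and 30.3 with A1+OVA. The lowest A1 sample lay within the range of the controls, whereas all A1+OVA samples lay above them. The log2 fold change was 0.28 ± 0.07 with A1 and 0.31 ± 0.07 with A1+OVA (adjusted p = 0.00212 and 0.000921, edgeR).

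Per kb of exon, which allows genes of different length to be compared, the summed level of the 3 kinases was 121 ± 3.04 CPM per kb in controls, 77.7 ± 0.974 with A1 and 78.7 ± 0.922 with A1+OVA. Jak1 made up 78.9% ± 0.626 of that sum in controls, 71.4% ± 0.534 with A1 and 70.9% ± 0.321 with A1+OVA (SD, n = 4). The share of Jak2 was 18.2% ± 0.679, 23.3% ± 0.925 and 23.7% ± 0.340, and that of Tyk2 was 2.84% ± 0.303, 5.34% ± 0.502 and 5.37% ± 0.240. For each of these 3 shares the control samples lay apart from both treated groups.

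**Figure D2:**
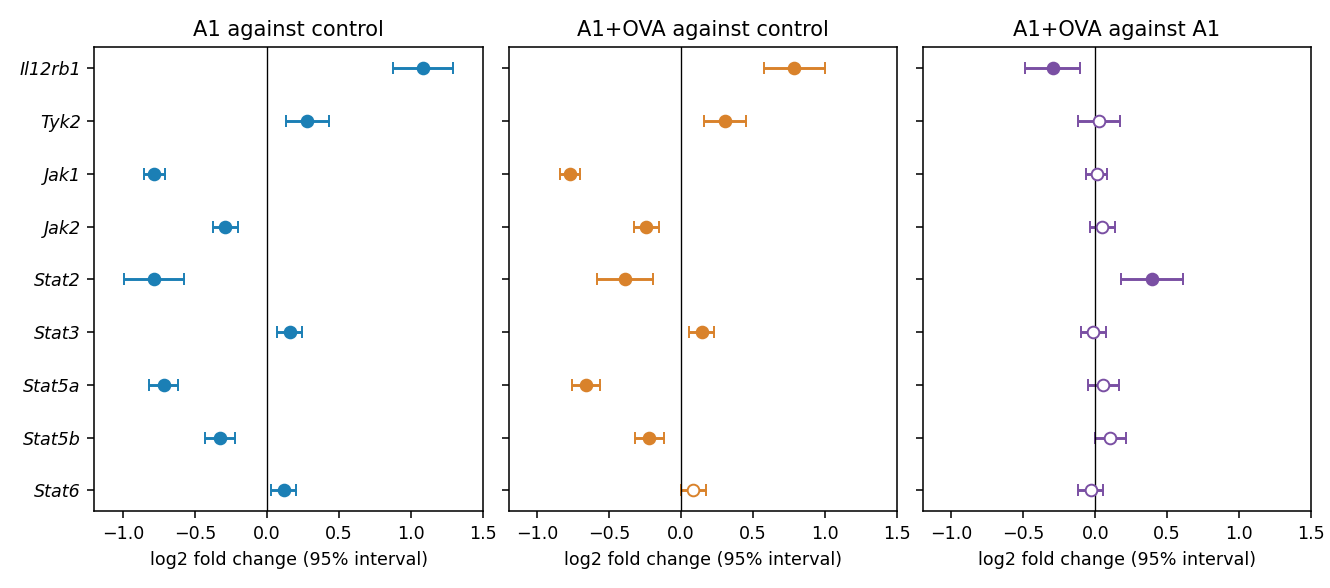
Log2 fold changes of the 9 genes from edgeR for A1 against control, A1+OVA against control and A1+OVA against A1, with bars for the 95% interval. Filled points passed an adjusted p of 0.05. In the left panel all 9 are filled, and in the right panel only Il12rb1 (-0.30) and Stat2 (0.39) are.

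Among the STAT genes, 3 fell and 2 rose with A1. Stat2 (ENSMUSG00000040033, chr10:128270559-128292849, plus strand), the interferon STAT that binds IRF9, had 28.7, 32.8, 36.1 and 34.7 CPM in controls, 17.5, 23.4, 17.6 and 18.4 with A1 and 20.9, 23.4, 28.1 and 28 with A1+OVA. It was the least uniform of the 9 genes among the A1+OVA samples, and both treated groups lay below the controls. Its log2 fold change was -0.79 ± 0.10 with A1 and -0.39 ± 0.09 with A1+OVA (adjusted p = 5.93e-07 and 0.00113, edgeR's quasi-likelihood test).

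Stat5a (ENSMUSG00000004043, chr11:100859351-100885169, plus strand) and Stat5b (ENSMUSG00000020919, chr11:100780731-100850724, minus strand) encode the closely related STATs of growth hormone and many cytokines. Stat5a had 47.3, 48.8, 48.6 and 49.2 CPM in controls, 28.4, 29.4, 29.1 and 30.9 with A1 and 29.5, 30.6, 31.4 and 30.8 with A1+OVA. Stat5b had 40.8, 40.5, 42.3 and 42.6 CPM in controls, 35.5, 32.7, 32.6 and 31.8 with A1 and 36.4, 35.7, 36.0 and 34.6 with A1+OVA. Both genes were lower in every treated sample than in any control. The log2 fold change of Stat5a was -0.72 ± 0.05 with A1 and -0.66 ± 0.05 with A1+OVA, and that of Stat5b was -0.33 ± 0.05 and -0.22 ± 0.05 (adjusted p from 2.48e-11 to 0.000573 in edgeR's quasi-likelihood test). Per kb, the ratio of Stat5a to Stat5b was 0.906 ± 0.0190 in controls, 0.692 ± 0.0541 with A1 and 0.666 ± 0.0266 with A1+OVA, and the controls (lowest 0.892) lay above the treated samples (highest 0.753). Of all stretches of 100 bases in their annotated transcripts, 3.44% of Stat5a and 4.79% of Stat5b were identical between the genes. Only read pairs with both reads in such stretches could not have been assigned to one gene, and their number was not counted. No such stretch was shared between another member and any other gene when each transcript was read on its own strand. Opposite strands were not compared.

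Stat3 (ENSMUSG00000004040, chr11:100885098-100939540, minus strand), the STAT of gp130 cytokines, rose by a small step. It had 67.4, 66.7, 64.5 and 72.2 CPM in controls, 75.7, 76.5, 74.7 and 75.0 with A1 and 75.5, 76.4, 74.7 and 72.3 with A1+OVA. All treated samples were above the highest control, the lowest A1+OVA sample by a narrow margin. The log2 fold change was 0.16 ± 0.04 with A1 and 0.14 ± 0.04 with A1+OVA (adjusted p = 0.00280 and 0.00591, edgeR).

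Stat6 (ENSMUSG00000002147, chr10:127642986-127660957, plus strand), the STAT of IL-4 and IL-13, changed least. It had 148, 133, 150 and 144 CPM in controls, 159, 158, 151 and 154 with A1 and 146, 151, 160 and 152 with A1+OVA. The A1 samples lay just above the controls, and the A1+OVA samples overlapped with them. The log2 fold change of 0.11 ± 0.04 with A1 passed (adjusted p = 0.0211, edgeR), and the 0.08 ± 0.04 with A1+OVA did not (adjusted p = 0.0899, 95% interval -0.0025 to 0.17). The call with A1 was lost without control replicate 2 (0.08, adjusted p = 0.0871), without A1 replicate 1 (0.10, adjusted p = 0.0741) and with upper-quartile factors (0.09, adjusted p = 0.0858).

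**Figure D3:**
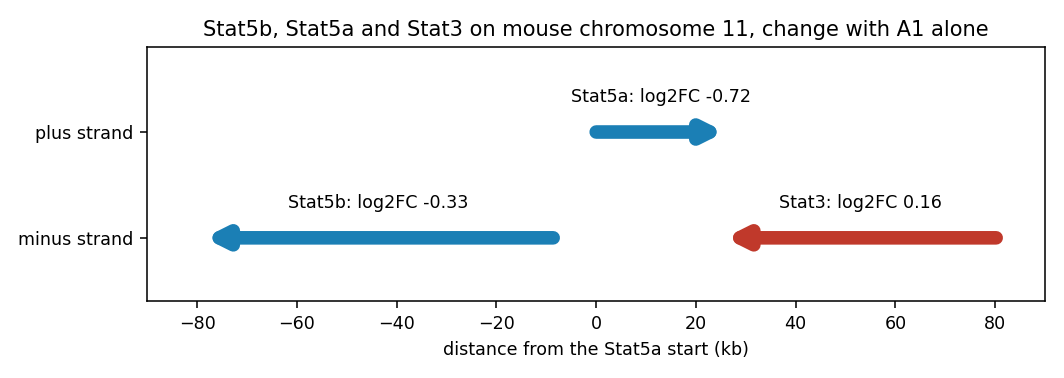
Stat5b, Stat5a and Stat3 drawn to scale on mouse chromosome 11, with arrows in the direction of transcription, the x axis as distance from the Stat5a start in kb, blue for lower and red for higher with A1. The neighbours moved by -0.33, -0.72 and 0.16 (log2 fold change, A1 against control).

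Stat3, Stat5a and Stat5b stand side by side within 158810 bases of chromosome 11. The ends of Stat3 and Stat5a overlap by 72 bases on opposite strands, and 8626 bases separate Stat5a from Stat5b. The adjacent genes had different changes, with Stat3 higher and both Stat5 genes lower. Outside the cluster, Cavin1, next to Stat3, was higher (0.23 ± 0.04) and Ghdc, next to Stat5b, was lower (-0.29 ± 0.11) with A1 (adjusted p = 6.66e-05 and 0.0257, edgeR). Stat6 overlaps in exons with Nab2 on the other strand, and Nab2 had a log2 fold change of 0.92 ± 0.05 (adjusted p = 2.26e-13, edgeR). The part of Nab2 reads in the small change of Stat6 was not tested, and the authors state that counting used the strand. Jak1 overlaps with Raver2, which had at most 0.0457 CPM as a group mean. Tyk2 overlaps in exons with an annotated antisense gene on the other strand, whose part in the change of Tyk2 was not tested.

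The promoter windows of Stat2 and Stat3 are shown because the interferon STAT fell and the gp130 STAT rose. Each is the 250 bases before the RefSeq start on GRCm38.p6, written 5′ to 3′ on the strand of the gene, at chr10:128270248-128270497 for Stat2 and chr11:100939541-100939790 for Stat3. Capitals mark matches to the motifs searched.
Stat2: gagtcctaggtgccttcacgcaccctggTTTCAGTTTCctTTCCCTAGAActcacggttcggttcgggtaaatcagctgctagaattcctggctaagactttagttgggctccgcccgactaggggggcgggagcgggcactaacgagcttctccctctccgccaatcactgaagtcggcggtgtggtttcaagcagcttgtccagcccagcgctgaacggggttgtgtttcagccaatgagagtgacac
Stat3: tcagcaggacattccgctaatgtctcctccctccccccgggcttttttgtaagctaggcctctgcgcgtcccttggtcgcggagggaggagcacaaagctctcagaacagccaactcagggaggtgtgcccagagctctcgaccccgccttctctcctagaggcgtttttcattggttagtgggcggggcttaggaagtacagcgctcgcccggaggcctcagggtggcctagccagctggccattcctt

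Such windows were matched for 8 of the 9 genes, all but Il12rb1. Stat5a and Stat5b have 2 starts each, which makes 10 windows, and these were searched on both strands for 5 motifs. These were the STAT dimer element TTCNNNGAA (in 7.02% of 32851 promoters of the same length), the STAT6-type element, which has 4 free bases in place of 3 between TTC and GAA (5.85%), the interferon-stimulated response element, TTTC repeated after 2 free bases (2.98%), the AP-1 element TGANTCA (6.75%) and the E-box CACGTG (6.02%). Among the 10 windows only that of Stat2 held a match, TTTCAGTTTC from 222 bases and TTCCCTAGAA from 210 bases before the start, and these do not overlap. The first bases after the RefSeq start of Stat2 were not found in its annotated transcripts. The same held for Jak2, Tyk2 and the Stat5b window at chr11:100822571-100822820. A match describes letters only, and windows without one say nothing about the factor.

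The order of the genes by level per kb differed between the groups below the top. In controls it was Jak1 (95.5 CPM per kb), Stat6 (32.6), Jak2 (22.1), Stat5b (7.50), Stat3 (7.11), Stat5a (6.79), Stat2 (5.58), Tyk2 (3.43) and Il12rb1 (1.40). Stat5b overlapped with Stat3 and Stat3 with Stat5a among the 4 samples, and all other neighbours in this order did not overlap. With A1 the order was Jak1 (55.5), Stat6 (35.3), Jak2 (18.1), Stat3 (7.92), Stat5b (5.98), Tyk2 (4.15), Stat5a (4.13), Stat2 (3.24) and Il12rb1 (2.97), where Tyk2 overlapped with Stat5a and Stat2 with Il12rb1. With A1+OVA, Stat5a (4.29), Stat2 (4.24) and Tyk2 (4.23) overlapped in sequence, and Il12rb1 (2.41) was lowest. Stat6 made up 54.7% ± 1.53 of the summed level per kb of the 5 STAT members in controls, 62.4% ± 0.425 with A1 and 60.2% ± 0.337 with A1+OVA.

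**Figure D4:**
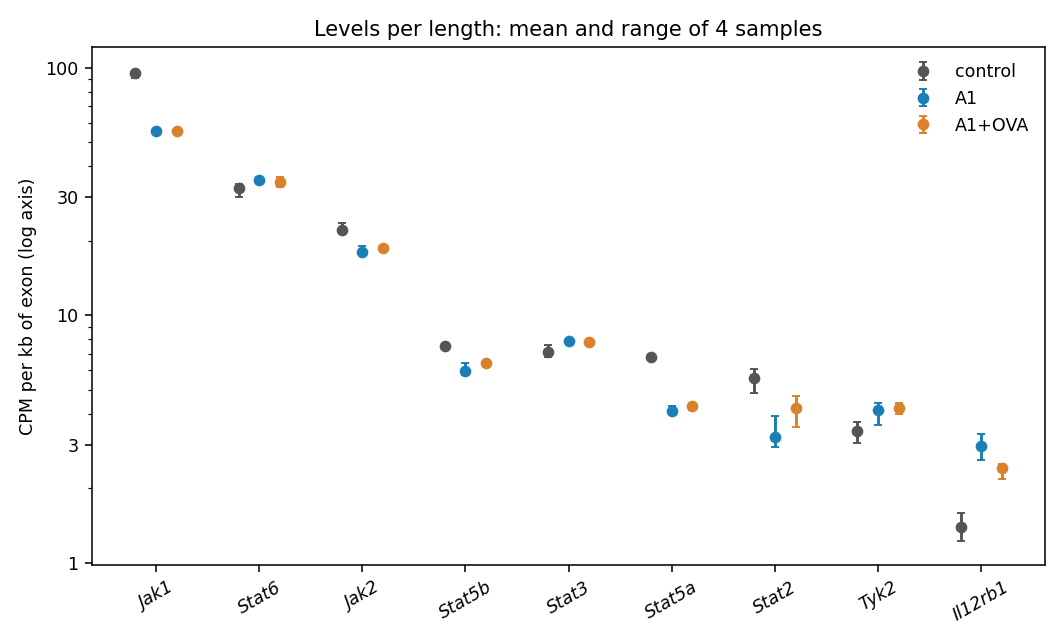
Level of each gene as CPM per kb of exon on a log axis, with the mean (point) and the range (bar) of the 4 samples of each group. Jak1 led every group (95.5 CPM per kb in controls, 55.5 with A1), and Il12rb1 was lowest in every group.

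A1+OVA was compared with the same 4 control samples as A1, so the values are given side by side above and not as a separate support. With A1+OVA, 8 of the 9 genes were called, 3 higher and 5 lower, against 57.6% of tested genes (29.7% higher, 27.9% lower). By size, 3 of them (Il12rb1, Jak1 and Stat5a) moved by 0.5 or more on the log2 scale, against 17.7% of tested genes, and 8 of the 9 did not overlap with controls, against 49.4%.

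Between A1+OVA and A1, 2 of the 9 genes were called, 1 higher and 1 lower, against 12.9% of tested genes (6.05% higher, 6.81% lower). None of the 9 moved by 0.5 or more on the log2 scale with a call by edgeR, against 1.2% of tested genes. Il12rb1 was lower with A1+OVA (log2 fold change -0.30 ± 0.09, adjusted p = 0.0395, edgeR's quasi-likelihood test) and its groups did not overlap, as for 18.1% of tested genes. Stat2 was higher (0.39 ± 0.10, adjusted p = 0.0149), and here A1 replicate 2 (23.4 CPM) fell among the A1+OVA samples. Both calls depended on single libraries. The Il12rb1 call was lost with DESeq2 (adjusted p = 0.0620) and without any of the 4 A1+OVA samples or A1 replicate 1, 2 or 4 (log2 fold change -0.32 to -0.24, adjusted p = 0.0575 to 0.135). The Stat2 call was lost without A1 replicate 1, 3 or 4 or A1+OVA replicate 3 or 4 (0.34 to 0.37, adjusted p = 0.0505 to 0.0631), and its adjusted p ranged from 0.000417 to 0.0631 over all 19 settings. The other 7 genes were not called, and their 95% intervals bound any difference on the log2 scale. Jak1 lay between -0.0626 and 0.08, Stat3 between -0.10 and 0.07 and Stat6 between -0.12 and 0.06. Jak2 lay between -0.04 and 0.13 and Stat5a between -0.05 and 0.16. Tyk2 had the widest interval, from -0.12 to 0.17. That of Stat5b reached furthest from 0 on one side, from -0.0011 to 0.21.

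The rest of the pathway was taken from lists of receptors, inhibitors and target genes that hold 107 distinct genes of the table besides the 9. Of these, 64 were tested and 46 were called with A1 (71.9%, against 62.7% of all tested genes), 22 higher and 24 lower, with a median log2 fold change of -0.0822. With A1+OVA 38 were called (59.4%, near the 57.6% of all tested genes), 19 higher and 19 lower. Between A1+OVA and A1 11 were called (17.2%, against 12.9%), 2 higher and 9 lower. For the single lists below, the shares of all tested genes to read against with A1 are again 62.7% called, 31.7% higher and 31.1% lower.

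Among 20 tested JAK-coupled receptor genes, 5 rose and 9 fell with A1 (median -0.16). Ghr, the growth hormone receptor that signals through JAK2 and STAT5, went from 195 ± 8.54 CPM in controls to 329 ± 9.77 with A1 (log2 fold change 0.75 ± 0.04), and Il4ra, the IL-4 receptor chain that docks STAT6, from 50.8 ± 1.95 to 75.5 ± 2.03 (0.57 ± 0.05). The interferon-gamma receptor chains parted, with Ifngr1 at -0.74 ± 0.04 and Ifngr2 at 0.60 ± 0.04. The largest falls were those of Il20ra, a receptor chain of IL-20 cytokines (-1.44 ± 0.26), and Csf2rb, the common beta chain of GM-CSF and IL-3 receptors (-1.07 ± 0.24), both at low levels of 2.88 and 1.81 CPM in controls.

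Of 18 tested inhibitors and phosphatases, 10 rose and 2 fell (66.7% called, near the share of all tested genes, median 0.11). Socs2, a STAT5-induced inhibitor of growth hormone signaling, rose from 18 ± 1.31 CPM to 66.7 ± 4.70 (1.89 ± 0.07), Sh2b3, an adaptor that restrains JAK2, by 0.88 ± 0.05, and Socs5 by 0.55 ± 0.04. The falls were Pias3 (-0.39 ± 0.07) and Pias1 (-0.37 ± 0.06), which encode SUMO ligases that bind STATs. Jak3 missed the threshold (-0.42 ± 0.19, adjusted p = 0.0649, edgeR).

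Of 8 tested STAT2-IRF9 target genes, 7 fell and 0 rose (median -0.97). Irf7, a transcription factor of the interferon response, had a log2 fold change of -1.33 ± 0.29, and the antiviral genes Ifit3 and Ifit1 had -1.14 ± 0.23 and -1.10 ± 0.15, all from levels of 1.45 to 5.69 CPM in controls. Stat2 itself had -0.79 in the same comparison. With A1+OVA 5 of the 8 fell, and between A1+OVA and A1 0 were called by edgeR's quasi-likelihood test.

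Of 9 tested STAT3 target genes, 7 rose and 1 fell (median 0.38). Junb and Myc, transcription factors of the early growth response, rose by 1.08 ± 0.06 and 1.03 ± 0.04, and the cyclin Ccnd1 by 0.52 ± 0.03, whereas Fos fell by 1.68 from 3.47 CPM in controls. Several of these genes are also targets of other factors. Of the 6 tested STAT5 targets, 2 were higher, 2 were lower and 2 (Cish and Bcl6) were not called, with Socs2 and Pim1, a serine kinase (0.46 ± 0.06), higher and Igf1, the growth factor induced by growth hormone (-2.25 ± 0.08), and the cyclin Ccnd2 (-0.19 ± 0.04) lower. Of 3 tested STAT6 targets, Il4ra and Mrc1 were higher (0.57 and 1.01) and Socs1 was not called (0.0155 ± 0.24), where Mrc1 is also among the macrophage markers given above. Only 4 of 10 IL-12 and STAT4 targets of T and NK cells were tested. Il18rap, a chain of the IL-18 receptor, was higher (1.28 ± 0.09), Hlx, a homeobox factor, was lower (-1.28 ± 0.12), and Furin (0.08 ± 0.05) and Gzmb (-0.87 ± 0.43) were not called.

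A list of 33 genes of proteins linked to IL-12 stimulation was written from general knowledge and checked against no database, with earlier results of these data known. The list was drawn up for proteins, whereas the values here are RNA levels. It had 22 genes higher and 3 lower with A1 (75.8% called, against 62.7% of all tested genes, median 0.22). Its largest changes were those of Serpinb2, a plasminogen activator inhibitor (0.520 ± 0.300 CPM in controls and 30.8 ± 3.58 with A1), Lcp1, an actin bundler (log2 fold change 1.45 ± 0.20), and Msn, a membrane-cytoskeleton linker (0.94 ± 0.04), with Pdcd4, an inhibitor of translation (-1.02 ± 0.07), Sod2, the mitochondrial superoxide dismutase (-0.23 ± 0.05), and the small GTPase Rala (-0.17 ± 0.05) lower. Members of this list respond to many stimuli, and it holds neither Il12rb2 nor Stat4. The share called is a description only.

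**Figure D5:**
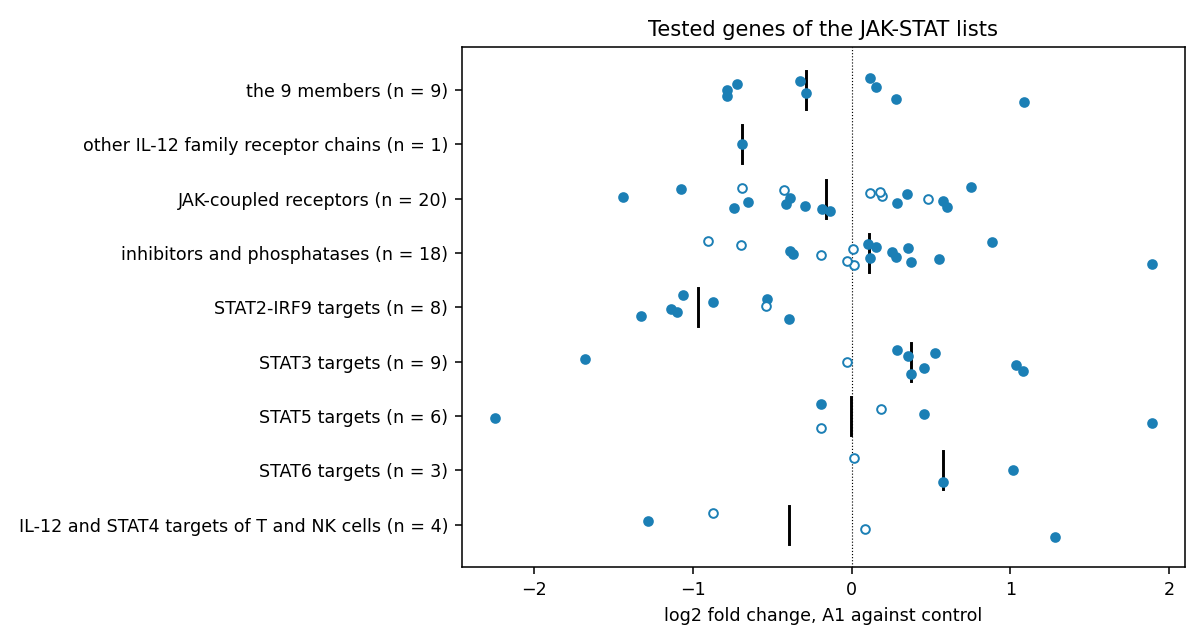
Log2 fold changes with A1 against control for the 9 genes and for the tested genes of the larger JAK-STAT lists and Il6st, one row per list, with n tested in brackets. Filled points passed an adjusted p of 0.05 and the vertical bar is the median of a list. The 8 STAT2-IRF9 targets all lie left of 0 (median -0.97), whereas the 9 STAT3 targets have a median of 0.38.

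As a description, the pattern of each member over the 12 samples was compared with that of all other tested genes by Pearson correlation of log2 CPM. These r values share the same libraries and the same difference between groups, and no p is given. Jak1 was most like Kitl, the stem cell factor of marrow stroma (r = 0.998), and Glis3 (r = 0.997), and Stat5a was most like Tbx18 (r = 0.997) and Lss (r = 0.995). Il12rb1 was most like the early response gene Ier2 (r = 0.986) and Rangap1 (r = 0.981). Stat2 was most like Ift172 (r = 0.977) and Wdpcp (r = 0.977). For the other members the most like genes were Aldoa and Mecr (Tyk2), Vps41 and Usp8 (Jak2), Dbndd2 and Sec24d (Stat3), Ppfia2 and Dpep1 (Stat5b), and Triobp and Ranbp3 (Stat6), with r from 0.931 to 0.985. After the group means were taken away, r over these 18 pairs ranged from 0.448 (Jak1 and Kitl) to 0.946 (Stat2 and Wdpcp). It was 0.611 for Stat5a and Lss and 0.659 for Il12rb1 and Rangap1. The pairs were selected by r over the same 12 samples, so deviations within the groups helped to select them and raise these values.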

How the data were processed

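The authors made strand-specific poly(A) libraries (KAPA), sequenced them in pairs, aligned the reads to GRCm38 with STAR (2.7), counted them per gene on Ensembl annotation with featureCounts (2.0) and deposited the counts without normalization, for 3 groups of 4 samples that the titles name. The deposited counts list 55487 genes. Symbols, biotypes and exon lengths came from GENCODE M21, which holds 99.53% of the identifiers.

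After filterByExpr and TMM scaling, 11314 protein-coding genes entered a quasi-likelihood fit (edgeR 4.0.16 in R 4.3.3) of all 12 samples, with the group alone in the model, with Benjamini-Hochberg adjustment over all tested genes and a threshold of 0.05. CPM used TMM-scaled libraries, and log2 CPM a prior count of 2. The tests were run on simulated counts in which few genes changed, in the A1 group only and with a fixed spread. In these data 62.7% of tested genes were called with A1, a setting that the simulation does not cover. All pairs of replicates differed by more than counting noise (chi-square per degree of freedom 2.18 to 9.00). The closest A1 pairs were replicates 1 and 3 (2.88) and 2 and 4 (3.41). In A1+OVA they were 1 and 2 (2.50) and 3 and 4 (3.96). All other pairs of A1 and of A1+OVA were at 5.43 or more. Among the controls, replicates 3 and 4 were closest (2.18), followed by 2 and 3 (4.32). Whether the samples of such a pair share an origin was not tested. Alternatives were DESeq2 (1.42.0), upper-quartile factors, no filter, a stricter filter (10 counts in each sample), non-coding genes included, a fit of only the groups compared, an absolute log2 fold change of 0.5, the replicate number as a block, and each sample left out.

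Named genes were all 9 members, every gene of lists with at most 5 tested genes, the 3 largest increases and 3 largest decreases of longer lists among genes called with A1 at a mean log2 CPM of at least 0, and untested ligand, receptor, JAK and STAT genes. A gene that this rule selects is not reported here. Cavin1, Ghdc, Nab2 and Raver2 are neighbours in the genome. The members and lists were chosen with earlier results of these data known. Promoters came from RefSeq.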

Additional observations from a re-analysis of the deposited data

Results flagged for a closer look

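In each of the 27 combinations of 9 genes and 3 groups, the highest and lowest of the 4 samples were compared with the range of the group, and 4 combinations held a sample that stood apart. Chance gives this in about 1 in 20 groups. In A1+OVA, Il12rb1 was lowest in replicate 1, at 8.99 CPM, while the other 3 samples lay between 10.1 and 10.3 CPM. In controls, Jak1 was lowest in replicate 1, at 661 CPM against 696 to 703 CPM in the others. Jak2 was highest in control replicate 2, at 119 CPM against 108 to 109 CPM. Stat2 was highest in A1 replicate 2, at 23.4 CPM against 17.5 to 18.4 CPM in the other A1 samples. Without these samples in turn, the calls of the same genes against control were kept.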

How the results depend on the processing

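Each of 27 member results (9 genes in 3 comparisons) was recomputed under 19 settings, 12 of which left out 1 sample, and 21 results kept their call and direction in all of them. Stat6 with A1 and the Il12rb1 and Stat2 differences between A1+OVA and A1 lost their calls in the settings named with them and, for Il12rb1, with the replicate number as a block (log2 fold change -0.297, adjusted p = 0.0528, edgeR), and without a sample they ranged from 0.0783 to 0.13, -0.3575 to -0.2442 and 0.335 to 0.50. Between A1+OVA and A1 the uncalled changes of Tyk2 (-0.0362 to 0.0583 with a sample left out), Jak1 (-0.0021 to 0.0182) and Stat3 (-0.0254 to 0.0015) crossed 0. With a fold threshold of 0.5, the member calls were 4 (A1), 3 (A1+OVA) and 0 (A1+OVA against A1), and the calls among pathway genes were 26, 21 and 1. Of the 2 members called between A1+OVA and A1, 1 was called with DESeq2, and 0 to 2 were called when a sample was left out. No pairing by the replicate numbers of the titles was seen. Deviations from the group means had a mean correlation of 0.0215 for the same number and -0.00704 for different numbers. Of 12 samples, 4 correlated best with their own number. Such weak correlations cannot tell whether samples of the same number were handled together. With the number as a block, 9, 8 and 1 members were called in the 3 comparisons. With 4 samples per group, Il12rb1 (85 to 188 counts) is the member whose depth limits it most.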
